A study of Mus musculus with 10 samples.

Results

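The interleukin-6 cytokine family and its receptors were followed in the left ventricle of mice after transverse aortic constriction (TAB), a surgical band on the aorta that loads the heart with pressure. The members were chosen by gene symbol and are Il6, Il11, Lif, Osm, Ctf1, Clcf1, Il6ra, Il6st, Osmr and Socs3, 10 of the 19942 symbols on the array, read by 11 of its 26423 probes. All 10 match a current RefSeq mouse symbol. Male C57BL/6J mice were operated at 8 weeks of age with a band (TAB) or without one (sham), and left-ventricle mRNA was hybridized in 1 colour to a Mouse Whole Genome OneArray. No transgene or drug is named for either group. 1 TAB and 1 sham sample were measured on each of days 3, 5, 7, 14 and 28, and how many mice a sample held is not stated. The day-14 TAB sample carries another day in one of its labels, and its title was followed. A single day has no replicate, and its differences carry no p-value. The 5 days served as replicates of a mean TAB effect, and its p-values measure only the spread between these samples.

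Cytokines of this family are recognized by a shared receptor subunit, gp130 (encoded by Il6st), together with a subunit of their own such as the interleukin-6 receptor (Il6ra) or the oncostatin M receptor (Osmr). Binding activates Janus kinases, which phosphorylate the transcription factor STAT3, and STAT3 switches on Socs3, whose protein binds gp130 and shuts the signal off. In the heart the family is known for cardiomyocyte growth and survival, for fibroblast activation and for inflammation after injury.

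The median raw intensity of an array lay between 34 and 57, and between 40.2% and 47.3% of the spots were marked as not found by the scanner software. Spots that were not found had a median raw intensity of 5 on every array, and the 1st percentile of found spots lay between 25 and 27. The deposited detection p-value was under 0.05 for 38.6% and 38.0% of the probes on the sham arrays of days 7 and 28, against 18.8% to 23.5% on the other arrays. Precision is limited by the number of arrays. Values below are normalized intensities unless a log2 ratio (TAB over sham of the same day) is named. Apart from the sums of marker lists, no probe is set against another by its level. The tissue is bulk, so that fewer cells of a type and less RNA per cell cannot be told apart.

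Of the 11 probes, 10 entered the fit and 8 were found on all 10 arrays. Il6, Il11 and Osmr were higher after TAB and Clcf1 was lower over the 5 days, at an adjusted p under 0.05 from limma, while 6 probes were not called. Among all 19976 probes tested, 7.47% were called higher and 6.73% lower (14.2% in either direction, and 33.8% at an unadjusted p under 0.05). The median of the mean log2 ratios was 0.39 over the 10 member probes and −0.05 over all probes. Setting Il6 to its lower bound could not change this median, since Il6 stays above the middle probes. All 5 TAB values lay above all 5 sham values for 3 member probes and below them for 1, and the groups overlapped for the other 6, whereas 8.78% and 7.59% of all probes were separated in these directions. All 4 member calls were kept without day 28 and were lost when day 3, 5, 7 or 14 was left out, with adjusted p from limma of 0.0506 to 0.119 and mean log2 ratios of 0.73 to 0.85 for Il11, 0.92 to 1.05 for Osmr and −0.91 to −0.76 for Clcf1. In these fits 13 to 126 of all probes were called higher.

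**Figure D1:**
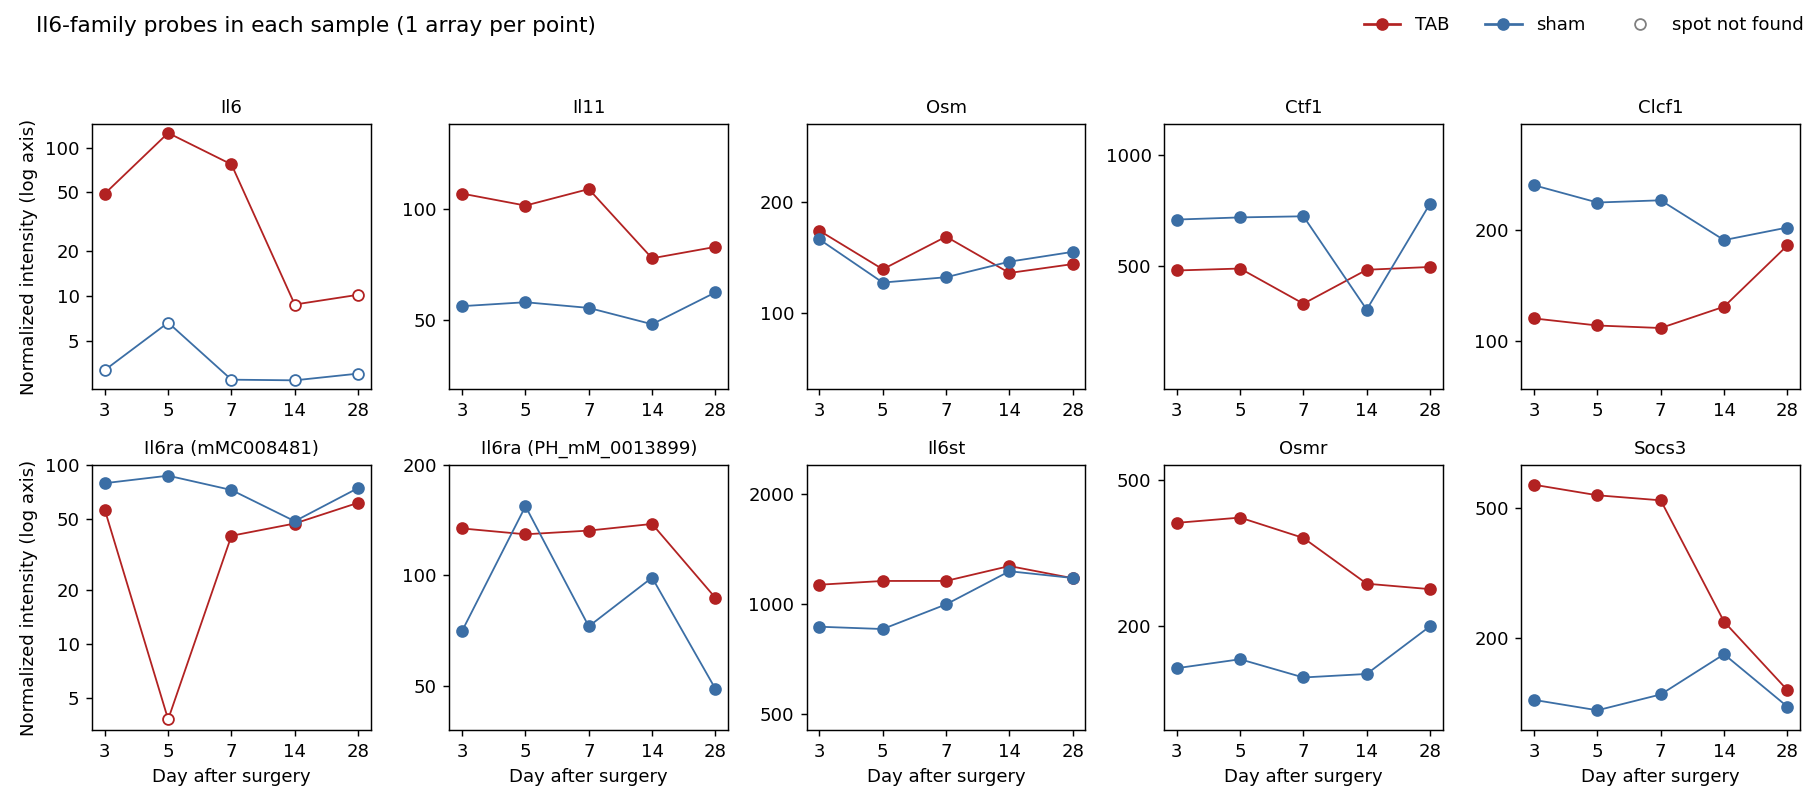
Normalized intensity (log axis) of each member probe in the 5 TAB (red) and 5 sham (blue) samples by day after surgery, with 1 array per point and open circles where the spot was not found. The 3 early TAB values of Socs3 sit between 526 and 587 and its 5 sham values between 121 and 179.

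Il6 is the founding cytokine of the family. Its TAB intensities were 49.0, 126, 77.1, 8.79 and 10.2 on days 3, 5, 7, 14 and 28, and its sham intensities were 3.19, 6.64, 2.74, 2.72 and 3.01. The groups did not overlap, but the spot was found only on the TAB arrays of days 3, 5 and 7 and on no sham array, and the detection p-value was under 0.05 on none. Since sham was not well above background, the difference is given as a bound, at least 2.90-fold over the 3 days on which the TAB spot was found, set against the 1st percentile of found spots on the sham arrays of those days (normalized intensity up to 34.0). The call over the 5 days (adjusted p = 0.0239 from limma) was fitted to the intensities as measured and is given no size. On days 14 and 28 neither spot was found, so no fold is given for them. Days 3, 5 and 7 were picked because the TAB spot was found on them, so the bound describes only these days. By the detection p-value the TAB spots of these days were not above background either.

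Il11 encodes interleukin-11, which signals through gp130 and its own receptor and is known for activating fibroblasts. It measured 110, 102, 113, 73.5 and 78.9 after TAB and 54.4, 55.8, 53.8, 48.6 and 59.3 in sham on the same days. Every TAB value lay above every sham value, with the 3 early TAB samples highest. Its mean log2 ratio was 0.80 (SE 0.14, 95% CI 0.46 to 1.13, adjusted p = 0.0261 from limma), a 1.74-fold difference. Its spot was found on all 10 arrays with raw intensities of 48 to 112, and its detection p-value was under 0.05 on 0 of them.

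Upstream of their start sites both genes hold the motif TGANTCA, to which AP-1 factors bind and which reads the same on both strands. The 250 bases before the start are shown for these genes, with the motif in capitals, because both were called higher. They were taken from RefSeq (GRCm38.p6) and are written 5′ to 3′ on the strand of the gene, + for Il6 (chr5:30012864-30013113) and − for Il11 (chr7:4778142-4778391).
Il6: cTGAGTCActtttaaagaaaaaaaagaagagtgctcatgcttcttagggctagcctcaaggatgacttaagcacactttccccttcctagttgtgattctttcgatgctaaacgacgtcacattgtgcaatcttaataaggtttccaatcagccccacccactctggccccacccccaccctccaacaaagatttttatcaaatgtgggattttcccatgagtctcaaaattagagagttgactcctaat
Il11: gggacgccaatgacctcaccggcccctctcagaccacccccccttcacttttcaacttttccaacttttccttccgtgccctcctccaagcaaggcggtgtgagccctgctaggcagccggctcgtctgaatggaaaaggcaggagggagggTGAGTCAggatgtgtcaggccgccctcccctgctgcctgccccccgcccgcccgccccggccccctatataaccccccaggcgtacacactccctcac
The match began 249 bases before the start of Il6 and 98 bases before that of Il11. In windows of 300 bases (250 before and 50 after the start), 7.81% of all 32851 windows held this motif. Of the 8 member genes with a window (9 windows), 4 held it (Il6, Il11, Lif and Osmr), a count by gene and not by window. The Osmr match lay after the start, at base 4, and Osm and Clcf1 had no window. Such a match is a description of letters, and the arrays did not measure binding.

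Clcf1 encodes cardiotrophin-like cytokine factor 1 and signals through gp130 and the leukemia inhibitory factor receptor. It measured 115, 110, 108, 124 and 182 after TAB and 265, 238, 241, 188 and 203 in sham. The groups did not overlap, and the TAB sample of day 28 lay closest to sham. The spot was found on all 10 arrays. Its detection p-value was under 0.05 on 2 of them, the sham arrays of days 7 and 28, where more of all probes were. The mean log2 ratio was −0.85 (SE 0.19, 95% CI −1.30 to −0.39, adjusted p = 0.0383 from limma), so the intensity was 1.80-fold lower after TAB.

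Ctf1 encodes cardiotrophin-1, a factor for cardiomyocyte growth, and its spot had a detection p-value under 0.05 on all 10 arrays. It measured 485, 491, 394, 487 and 496 after TAB and 667, 676, 681, 379 and 737 in sham. The groups overlapped because the sham sample of day 14 was the lowest value of all 10, with a log2 ratio of 0.36 on that day and of −0.79 to −0.46 on the other 4. The mean log2 ratio was −0.39 (95% CI −0.83 to 0.06, adjusted p = 0.197 from limma), and it was −0.57 (adjusted p = 0.0646 from limma) without day 14.

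Osm encodes oncostatin M, a cytokine of activated leukocytes. Its intensities ran from 128 to 167 after TAB and from 121 to 158 in sham, so the groups overlapped. Over the 5 days the mean log2 ratio was 0.07 (95% CI −0.21 to 0.35, adjusted p = 0.713 from limma). Lif encodes leukemia inhibitory factor, and its spot was found on 0 of 10 arrays with raw intensities of −2 to 10, so it was not fitted.

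Among the receptors, Osmr was the member called. It measured 381, 394, 347, 260 and 251 after TAB and 153, 162, 144, 148 and 199 in sham. The groups did not overlap, and the sham sample of day 28 was the highest of the sham samples. Its detection p-value was under 0.05 on 3 arrays, that of TAB on day 5 and those of sham on days 7 and 28. The mean log2 ratio was 1.00 (SE 0.18, 95% CI 0.57 to 1.44, adjusted p = 0.0269 from limma), a 2.0-fold difference, with log2 ratios of 1.32, 1.28, 1.26, 0.82 and 0.34 by day.

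Il6st (gp130) had a detection p-value under 0.05 on all 10 arrays. It measured 1128, 1155, 1155, 1269 and 1175 after TAB and 867, 854, 997, 1228 and 1177 in sham. The groups overlapped through the sham samples of days 14 and 28. Over the 5 days the mean log2 ratio was 0.21 (95% CI −0.07 to 0.50, adjusted p = 0.248 from limma).

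Il6ra, the receptor subunit for interleukin-6, was read by a pair of probes whose mean log2 ratios differed in sign, and neither was called. Probe mMC008481 measured 56.2, 3.79, 40.3, 47.2 and 61.6 after TAB and 79.3, 87.3, 72.6, 48.6 and 74.4 in sham, and the spot with 3.79 was not found. Its mean log2 ratio was −1.24 (95% CI −2.88 to 0.40, adjusted p = 0.252 from limma) and −0.42 (adjusted p = 0.210 from limma) without day 5. Probe PH_mM_0013899 measured 134, 129, 132, 138 and 86.8 after TAB and 70.6, 154, 72.6, 98.6 and 49.1 in sham. Its mean log2 ratio was 0.57 (95% CI 0.09 to 1.06, adjusted p = 0.104 from limma). The adjusted p from limma was 0.0373 when the test was limited to probes found on all arrays and 0.0477 with limma's trend and robust options. Both settings also called more of all probes. Of the 12654 probes found on all arrays, 2032 were called higher and 2345 lower. With trend and robust, 2290 and 2436 of 19976 were, against 1492 and 1344 in the main fit.

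**Figure D2:**
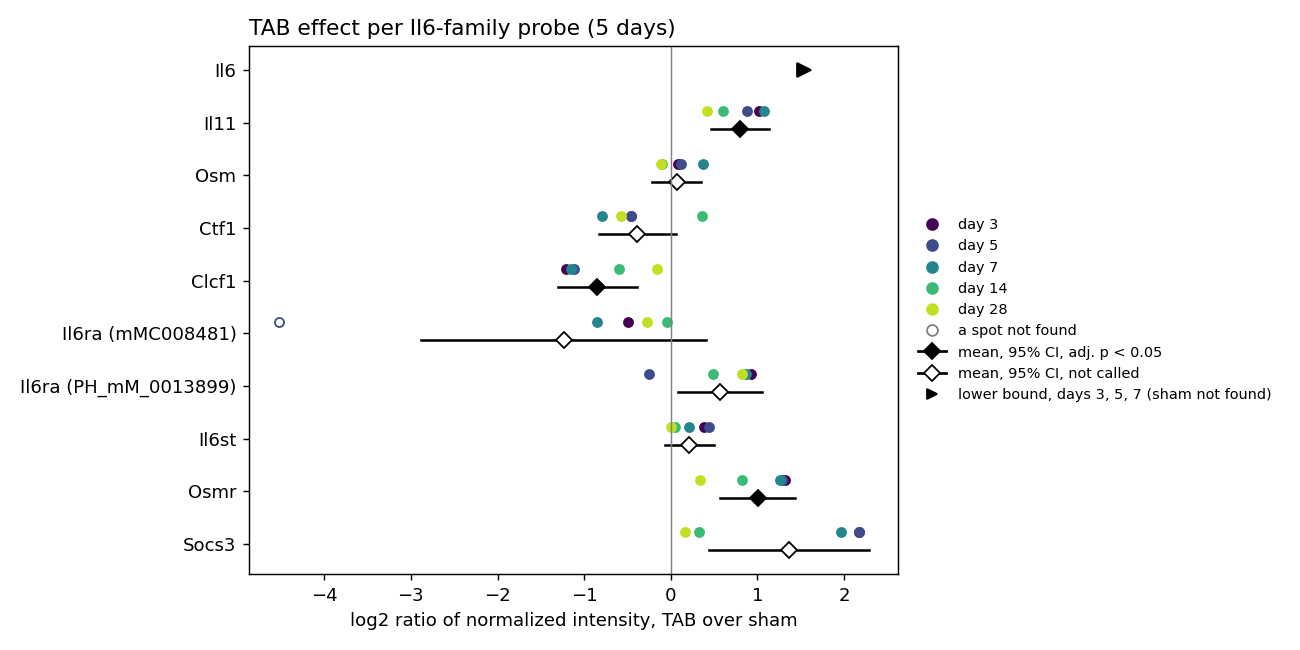
Log2 ratio of TAB over sham for each member probe, with 1 dot per day (open where a spot was not found) and a diamond with a 95% CI for the mean over the 5 days (filled where the adjusted p was under 0.05). Il6 is shown as a triangle at the lower bound of days 3, 5 and 7, log2 1.54, because its sham spots were not found, and the CI of Socs3 ran from 0.44 to 2.28.

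Socs3, the feedback inhibitor of the pathway, measured 587, 545, 526, 225 and 139 after TAB and 130, 121, 135, 179 and 124 in sham. The TAB samples of days 3, 5 and 7 lay far above all sham samples, while that of day 28 lay within the sham range. The log2 ratios were 2.18, 2.17, 1.96, 0.33 and 0.17 by day. Averaged over the 5 days, the mean log2 ratio was 1.36 (SE 0.38, 95% CI 0.44 to 2.28), which was not called (adjusted p = 0.0615 from limma). It was called in the fit without the day block (adjusted p = 0.0341 from limma), without day 28 (adjusted p = 0.0438), with 50 added to the intensity (adjusted p = 0.0298), with trend and robust (adjusted p = 0.0463), and among probes found on all arrays (adjusted p = 0.0155). Apart from the fit without day 28, each of these settings also called more of all probes in both directions than the main fit. Socs3 was not called with median scaling alone (adjusted p = 0.0567 from limma), normalization within each operation (adjusted p = 0.0554), the mean of each rank (adjusted p = 0.0617), 1 probe per gene (adjusted p = 0.0565) or values below 1 set to 1 (adjusted p = 0.113), nor without day 3, 5, 7 or 14 (adjusted p = 0.160, 0.168, 0.170 and 0.0710).

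Upstream of its start, Socs3 holds TTCTTAGAA, a match to the motif TTCNNNGAA that STAT factors bind and that reads the same on both strands. The match began 154 bases before the start. The 250 bases are shown with the match in capitals because Socs3 is the known STAT3 target among the members. They come from RefSeq (GRCm38.p6, chr11:117969367-117969616), 5′ to 3′ on the − strand.
Socs3: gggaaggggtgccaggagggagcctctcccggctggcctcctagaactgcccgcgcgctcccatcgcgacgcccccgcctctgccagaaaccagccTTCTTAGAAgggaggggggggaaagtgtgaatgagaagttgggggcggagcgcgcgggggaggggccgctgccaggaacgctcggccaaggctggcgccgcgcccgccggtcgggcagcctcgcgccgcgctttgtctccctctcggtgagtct
The motif occurred in 8.30% of all windows and in 1 of the 8 member genes with a window. No binding was measured.

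Whether the TAB effect differed between the early days (3, 5 and 7) and the late days (14 and 28) was tested as a difference of the TAB effects. No member probe passed, nor did any of the 19976 probes (lowest adjusted p = 0.227 from limma); unadjusted, 4 of the 10 member probes and 10.4% of all probes had p under 0.05. For Socs3 the early effect exceeded the late one by 1.86 on the log2 scale (95% CI 1.34 to 2.37, unadjusted p = 0.000237, adjusted p = 0.227 from limma). No size is given for Il6, one of the 4, whose spots were not found on either array of days 14 and 28. On simulated data for the 19976 probes, with 100 changed at each size, this test recovered 21% of differences of log2 2 and 59% of those of log2 3. These rates hold only for that setting, because the share of probes that truly differed in the measured data is not known. They do not tell why no probe passed.

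The effect of the early days alone, chosen after seeing the data, was called higher for 4 member probes and lower for 1, against 8.64% and 7.18% of all probes (34.7% had an unadjusted p under 0.05). These were Il6 (at least 2.90-fold; adjusted p = 0.00823 from limma, fitted to the intensities as measured) and, as log2 ratios, Il11 (0.99, adjusted p = 0.0178), Osmr (1.29, adjusted p = 0.0151), Socs3 (2.10, SE 0.13, adjusted p = 0.00935) and Clcf1 (−1.16, adjusted p = 0.0169). The effect of the late days alone was called for 0 member probes and 0 of all probes in limma, where 3 member probes and 13.7% of all probes had an unadjusted p under 0.05. The late log2 ratios were 0.50 for Il11, 0.58 for Osmr, 0.25 for Socs3 and −0.38 for Clcf1.

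By day, a probe was taken as DE when its log2 ratio lay more than 2 SDs of that day from 0, a limit of 1.75, 1.87, 1.71, 1.46 and 1.38 on the 5 days. Of the 50 member values, 8 were up-regulated and 1 was down-regulated, against 3.44% and 2.14% of all values. Over all probes, the up- and down-regulated shares were 3.07% and 2.33% on day 3, 3.77% and 1.69% on day 5, 3.71% and 1.77% on day 7, 3.29% and 2.37% on day 14, and 3.36% and 2.55% on day 28. Il6 passed the limit on all 5 days, but its sham spot was not found on any of them and its TAB spot not on days 14 and 28. Socs3 was up-regulated on days 3, 5 and 7, and the down-regulated value was Il6ra probe mMC008481 on day 5, where the TAB spot was not found. Between the 10 pairs of sham samples, the highest absolute log2 ratio was 0.57 for Socs3, 0.29 for Il11, 0.46 for Osmr and 0.50 for Clcf1. The absolute TAB ratio exceeded this spread on 3 days for Socs3, on 5 for Il11, on 4 each for Osmr and Clcf1, on 5 for Il6 and on 2 for Il6ra probe mMC008481, and on 0 days for Osm, Ctf1, Il6st and Il6ra probe PH_mM_0013899. These were 23 of the 50 member values, against 28.8% of all values, and those of Il6 and 1 of Il6ra include spots not found.

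**Figure D3:**
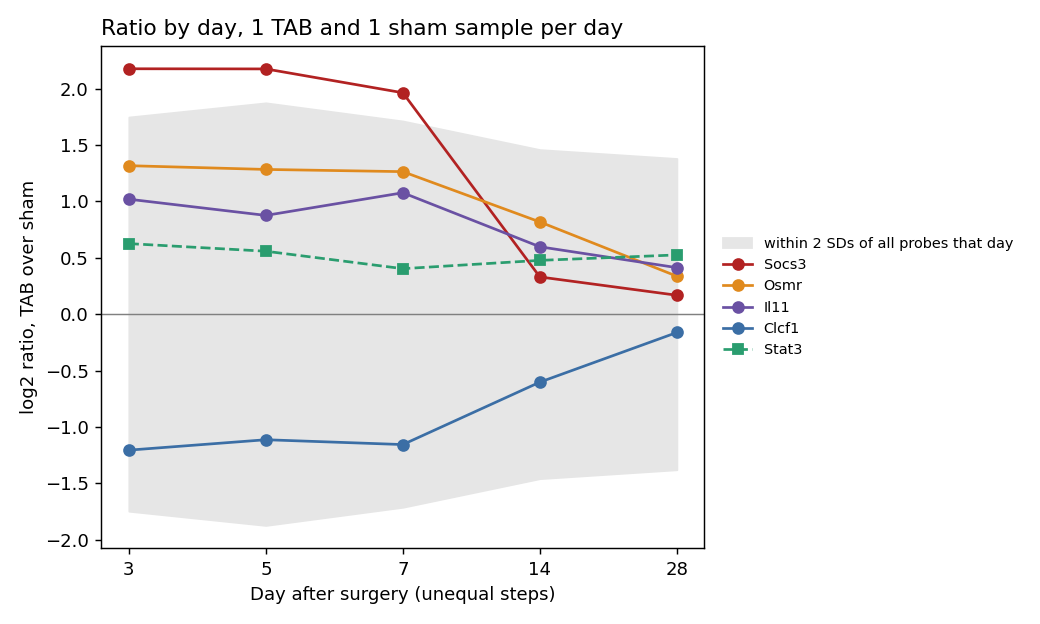
Log2 ratio of TAB over sham by day for Socs3, Osmr, Il11 and Clcf1 (solid) and for Stat3 (dashed), 1 sample per operation and day, with days at unequal steps and a grey band for 2 SDs of all probes of the day. Socs3 stood at 1.96 on day 7 and 0.33 on day 14, and Osmr at 1.26 and 0.82.

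Beyond the members, 17 other genes of the pathway were listed, of which 16 are on the array by the listed symbol. Of 15 probes in the fit, 2 were called higher and 2 lower and 11 were not called, with a median mean log2 ratio of 0.23. All 4 calls were lost when day 3, 5, 7 or 14 was left out (lowest adjusted p = 0.0541 from limma). The probes called higher were Ebi3, a subunit of interleukin-27, with a mean log2 ratio of 1.03 (adjusted p = 0.0237 from limma; detection p-value under 0.05 on 0 arrays), and Stat3, the transcription factor, with 0.52 (adjusted p = 0.0294). Lifr, the receptor subunit for Lif and Ctf1, was lower for probe PH_mM_0007134 (−0.66, adjusted p = 0.0360 from limma), while probe mMC008554 had −0.07 (adjusted p = 0.834). Jak1, a kinase bound to gp130, was lower for probe PH_mM_0005303 (−0.56, adjusted p = 0.0349 from limma), while probe PH_mM_0014230 had 0.11 (adjusted p = 0.541).

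Of the genes known as gp130 or STAT3 targets, 18 were listed and 16 probes were fitted, of which 3 were called higher and 1 lower, with a median mean log2 ratio of 0.61. Without day 3, 5, 7 or 14, 0 were called in either direction (lowest adjusted p = 0.0506 from limma), and without day 28, 3 were higher (Timp1, Serpina3n and Myc) and 0 lower. Timp1, an inhibitor of matrix metalloproteinases, measured 7623, 12990, 9534, 1772 and 807 after TAB and at most 160 in sham (mean log2 ratio 5.02, SE 0.63, adjusted p = 0.0174 from limma). Serpina3n, a serine protease inhibitor, was higher by 2.54 on the log2 scale (SE 0.35; limma's adjusted p = 0.0190). Saa3, an acute-phase protein, was found on 4 TAB arrays and no sham array and was at least 1.44-fold higher on those 4 days against the same kind of floor (adjusted p over the 5 days = 0.0307 from limma, fitted as measured). Il4ra, the interleukin-4 receptor subunit, had −0.53 (adjusted p = 0.0490 from limma), a call that median scaling alone and normalization within each operation did not keep. The 12 probes not called ran from −0.17 (Pim1, adjusted p = 0.512 from limma) to 1.09 (Myc, adjusted p = 0.0563), and some of them were not found on every array.

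**Figure D4:**
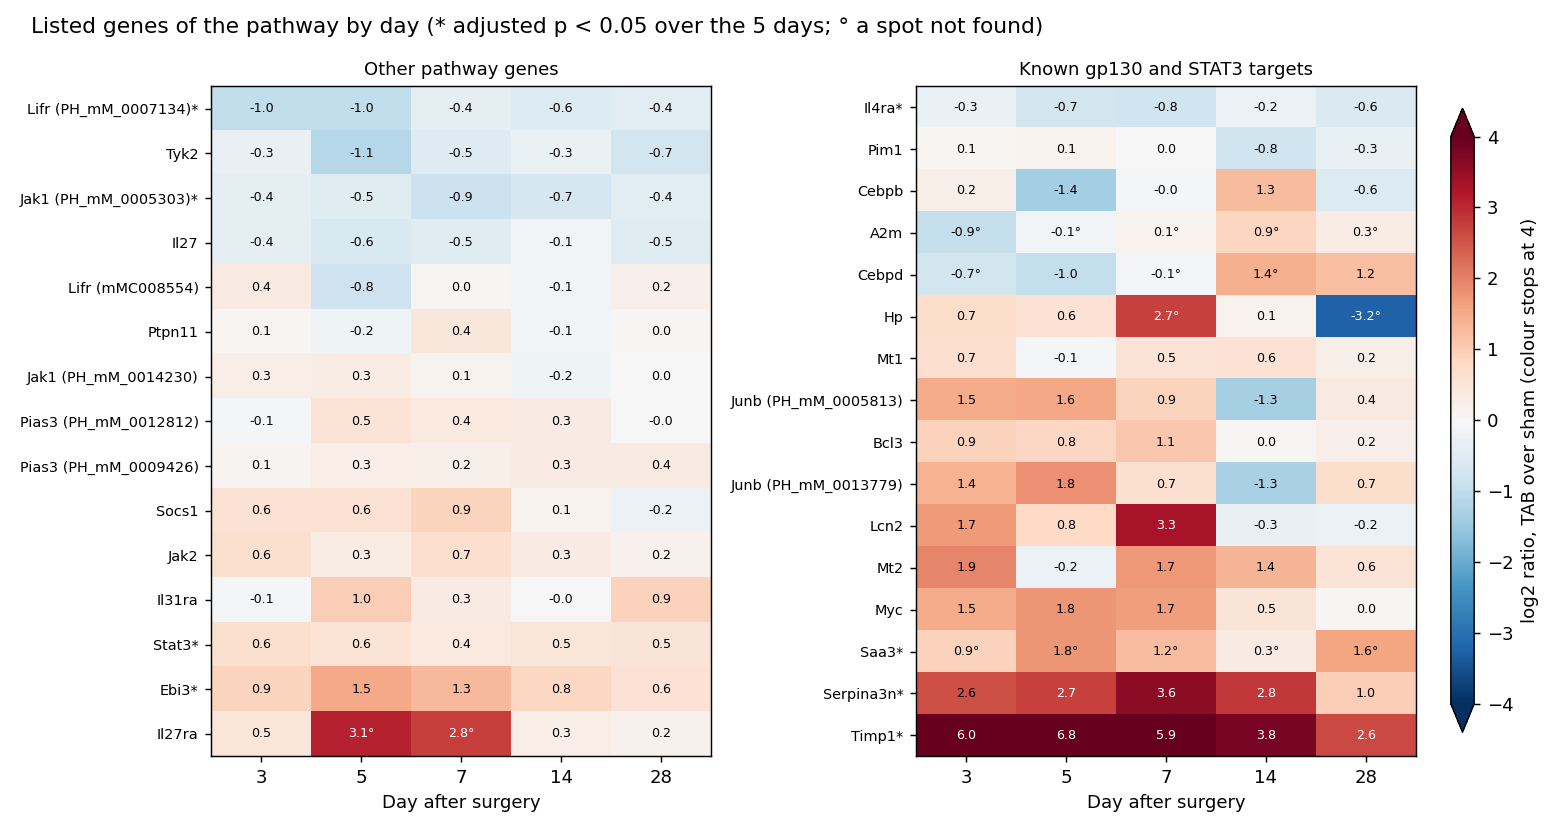
Log2 ratios of TAB over sham by day for the other pathway genes (left) and the known targets (right), with an asterisk for an adjusted p under 0.05 over the 5 days and a degree sign where a spot was not found. Timp1 stands at the bottom of the right panel with a mean log2 ratio of 5.02.

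Markers of other cell types also differed between TAB and sham. Of the leukocyte list, 8 probes were fitted, and 6 were higher (Ptprc, Itgam, Cd68, Csf1r, Emr1 and S100a8) and 1 lower (Cd3e) after TAB. S100a8 was found on no array. Without day 3, 5 or 7 none of these was called in limma, without day 14 Itgam alone was, and without day 28 the 6 higher were. The summed normalized intensity of the list ran from 2272 to 5332 after TAB and from 1522 to 1978 in sham, with TAB-to-sham ratios of 2.31, 3.50, 3.12, 1.48 and 1.31 by day. Of the fibroblast list, 2 of 5 probes were higher (Postn, 10.4-fold, and Col3a1, with log2 ratios of 2.50 to 3.96 on the 4 days on which its sham spot was found) and 3 were not called (without day 3 neither was called, without day 7 or 14 Postn alone), with sums of 54300 to 73823 after TAB and 43460 to 48040 in sham and ratios of 1.44, 1.46, 1.52, 1.54 and 1.25 by day. Both probes of Dcn, which were not called (log2 ratios 0.26 and 0.19), made up 73.1% to 86.1% of this sum after TAB and 96.3% to 96.9% in sham, and without them it ran from 7572 to 18187 after TAB and from 1420 to 1633 in sham. Such sums and shares describe intensities of different probes, not amounts of RNA, and include a sham spot of Col3a1 that was not found. Pdgfra of the fibroblast list was not fitted, and its spot was found on 2 sham arrays and 0 TAB arrays. Col1a1 was not fitted either and was found on 0 arrays. The part of these leukocyte and fibroblast markers in the results for Il6, Il11, Osmr, Socs3 and Clcf1 was not tested. Of the endothelial and cardiomyocyte lists, 0 of 6 probes each were called, and all 6 cardiomyocyte probes were found on all arrays. Myl2 among these 6 lay close to the upper limit of the scanner (raw intensity 61879 to 65473), where a higher level could not be read.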

How the data were processed

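Left-ventricle mRNA of 5 TAB and 5 sham samples was read on the Mouse Whole Genome OneArray (version 2) with GenePix 4.1, per the submitters' processing notes. The authors deposited raw intensity per probe, not scaled between arrays, from which the background had been subtracted (method not given in the sources used here). The deposited detection p-value was calculated in a way the sources do not give, and the negative value of the deposited flag was read as a spot not found. Samples were grouped by operation and day from the labels.

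Arrays were scaled to a common median, and the 6447 probes below 1 in any sample were removed. The 19976 probes kept were quantile normalized, each rank taking its median over the arrays and ties their average, and log2 transformed. limma 3.58.1 (R 4.3.3) tested the TAB effect per probe with day as block, with Benjamini-Hochberg adjustment over all probes at 0.05. Day after surgery was the block because the study's ratios set TAB against sham of the same day. Deviations from the group means correlated between the 2 arrays of a day with r = 0.112, 0.00148, 0.0466, 0.0164 and 0.0163 on days 3, 5, 7, 14 and 28. Only 1 of these exceeded 0.1, so a fit that leaves the block out was also run. A fold against a spot not found is given as a bound, against the higher of the 1st percentile of found spots of each array and the spot itself, over the days on which the brighter spot was found, a floor chosen after seeing the data. Against the dimmest found spot of each array the bounds were 9.47-fold for Il6 and 2.58-fold for Saa3. Motifs were sought in 300-base RefSeq windows. On simulated data for the 19976 probes, with 200 changed, the TAB effect was recovered for 90% (log2 change 2) and 99% (log2 change 3) with 7 false calls. The share of probes truly changed in the measured data is not known, so recovery there can differ. Python 3.11.15 with numpy 2.4.6, pandas 2.3.3 and matplotlib 3.10.9 did the rest. Members and gene lists were chosen with earlier results of these data known. All member probes are named, and of the other lists those called. A second probe of a called gene and the lowest and highest of the target probes not called were chosen after their values were seen. So were Dcn, Myl2, Pdgfra and Col1a1. For members found on all arrays with an absolute mean log2 ratio over 1, 3 probes of other genes are named. These had the smallest root mean square difference of the 5 log2 ratios. Alternatives were other scalings, filters and fits and each day left out; effects of the early and late days alone were added after seeing the data. A few listed genes are not reported here and were left out of the list counts. Proteins and miRNA were not analysed here.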

Additional observations from a re-analysis of the deposited data

Results flagged for a closer look

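In 7 of 20 groups of 5 member values, the highest or lowest sample stood apart from the others by Dixon's ratio (above 0.71). The chance rate of about 1 in 20 is for 5 replicates, whereas the samples of a group differ in day. The share among all probes was not computed, so the count is not read as particular to the members. The sham sample of day 5 was highest for Il6 (ratio 0.822, 6.64 against 3.19, spot not found). The TAB sample of day 7 was lowest for Ctf1 (0.904, 394 against 485), and the sham sample of day 14 was lowest for it too (0.850, 379 against 667). The TAB sample of day 28 was highest for Clcf1 (0.741, 182 against 124). For Il6ra, the TAB sample of day 5 was lowest for probe mMC008481 (0.848, 3.79 against 40.3, spot not found) and that of day 28 for probe PH_mM_0013899 (0.860, 86.8 against 129). The sham sample of day 14 was highest for Socs3 (0.717, 179 against 135).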

How the results depend on the processing

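Fitting without the day block (no pairing) gave 2016 probes higher and 1859 lower against 1492 and 1344, and 4 members higher against 3, Socs3 being added. All probes called higher were 264 with values below 1 set to 1, 2365 with 50 added and 2290 with trend and robust, and 13, 33, 21, 126 and 1455 without day 3, 5, 7, 14 and 28. Those lower were 884 with median scaling alone, 107 with values below 1 set to 1, 2345 among probes found on all arrays, 2525 with 50 added, 2436 with trend and robust, and 0, 2, 2, 58 and 1318 without these days. Of the calls, 52.6% were higher, against 66.4% with median scaling alone and 65.5% with normalization within each operation. Members higher were 0 with values below 1 set to 1, 5 with trend and robust, 0 to 4 with a day left out and 0 on the late days alone; members lower were 0 with values below 1 set to 1, 0 to 1 with a day left out and 0 on the late days alone. Other pathway genes higher were 0 with values below 1 set to 1 and 0 to 2 with a day left out; those lower were 1 with median scaling alone, 0 with values below 1 set to 1, 4 each among found probes, with 50 added and with trend and robust, and 0 to 2. Known targets higher were 6 among found probes, 7 with 50 added, 6 with trend and robust, and 0 to 3 with a day left out (0 without day 3, 5, 7 or 14); those lower were 0 with median scaling, within each operation, with values below 1 set to 1 and with any day left out (0 to 0). Up-regulated member values were 13 at an absolute log2 ratio of 1 and 4 among found probes, against 8, and down-regulated ones 4 and 0, against 1. With values below 1 set to 1, the calls of Il6, Il11, Clcf1 and Osmr were lost (adjusted p from limma 0.0623, 0.0623, 0.0813 and 0.0631). The adjusted p with a day left out reached 0.0865 for Il6, 0.0940 for Il11, 0.119 for Clcf1 and 0.0965 for Osmr. With 50 added, the call of Il6 was kept (adjusted p = 0.0353 from limma). No size is given for it, since the added 50 exceeds all its sham intensities. Osm turned to −0.0034 without day 7 and −0.11 on the late days alone. The difference between early and late days was called for no member probe with median scaling alone, with day 7 counted as late or with a day left out; the cause of these changes was not tested.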

Other observations

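Among 12059 named probes of other genes found on all arrays, those whose 5 log2 ratios were most like Osmr were Ddr1, a collagen receptor (root mean square difference 0.0889), Col4a5, a basement membrane collagen (0.107), and Vim, the intermediate filament vimentin (0.108). Most like Socs3 were Tas2r136 (0.128), Fkbp11 (0.238) and Ripk3, a kinase of programmed necrosis (0.301). The 5 log2 ratios come from the same arrays as the members.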
